A study of Mus musculus with 2 samples.

Results

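The Glis family of zinc finger transcription factors, Glis1, Glis2 and Glis3, was followed through a comparison of DNA methylation between Ngn3 null and Ngn3 heterozygous cells of the E14.5 mouse pancreas. The 3 genes were chosen by name and looked up, ignoring case, in the authors' deposited table of genes nearest to differentially methylated regions. They are 3 of the 21887 annotated protein-coding genes of the mouse. All 3 could be looked up. Glis3 was named in both directions, Glis1 was named for higher methylation in null cells alone, and Glis2 was not named.

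Glis proteins bind DNA through tandem C2H2 zinc fingers and are relatives of the Gli factors, which carry out Hedgehog signalling, and of the Zic factors. Glis3 is needed for the formation and upkeep of pancreatic beta cells and activates the insulin genes, and its loss causes neonatal diabetes together with congenital hypothyroidism in people. Loss of Glis2 causes nephronophthisis, a cystic kidney disease, and Glis1 is best known as a factor that helps to reprogram differentiated cells to pluripotency. Methylation of cytosine in CpG pairs is usually low at active promoters and enhancers, and a methylation difference near a gene is not a measurement of its expression.

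Each genotype had 1 whole-genome bisulfite library, made from pancreatic cells sorted for an eGFP reporter carried at Ngn3, the gene now called Neurog3, which starts endocrine differentiation. Heterozygous embryos (Ngn3eGFP/+) carry 1 reporter allele, and null embryos (Ngn3eGFP/eGFP) carry it on both. Both groups share the reporter, the stage and a mixed background that the labels give as over 95% ICR, with under 2.5% each of C57Bl/6 and 129svev. Islet progenitors is the name the labels give to the heterozygous cells and endocrine progenitors the one they give to the null cells, so genotype and any difference in cell stage or in the mix of sorted cells cannot be told apart. About 400000000 reads were obtained per library according to the labels, and the coverage behind any single region is unknown. There was no replicate, so nothing below carries a p-value. The table gives names only. Methylation levels, positions of regions and how many regions a gene had are not part of it, and the defining markers of the sorted cells could not be checked in it.

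The promoters of Glis1, Glis3 and Ins1 show how differently supplied with CpG pairs these loci are, and CpG pairs are where a bisulfite library mainly reads methylation. Ins1 is an insulin gene that Glis3 activates, and it was named for higher methylation in null cells. The sequences are the 250 bases before the transcript start that the RefSeq promoter table for GRCm38.p6 uses for each gene, 5′ to 3′ on the strand of the gene, with every CpG in capitals. That start is 8.08 kb inside the full annotated span of Glis1 and 0.188 kb inside that of Glis3, whose other annotated transcripts reach farther, and it is the first base of Ins1. They lie at chr4:107434469-107434718 on the plus strand for Glis1, at chr19:28680078-28680327 on the minus strand for Glis3 and at chr19:52264047-52264296 on the plus strand for Ins1.
Glis1: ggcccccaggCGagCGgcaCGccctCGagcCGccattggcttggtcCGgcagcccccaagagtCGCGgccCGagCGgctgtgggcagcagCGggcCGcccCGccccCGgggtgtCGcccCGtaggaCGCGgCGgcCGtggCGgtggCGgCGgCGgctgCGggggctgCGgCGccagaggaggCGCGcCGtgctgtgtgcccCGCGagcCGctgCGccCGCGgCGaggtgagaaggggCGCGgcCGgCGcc
Glis3: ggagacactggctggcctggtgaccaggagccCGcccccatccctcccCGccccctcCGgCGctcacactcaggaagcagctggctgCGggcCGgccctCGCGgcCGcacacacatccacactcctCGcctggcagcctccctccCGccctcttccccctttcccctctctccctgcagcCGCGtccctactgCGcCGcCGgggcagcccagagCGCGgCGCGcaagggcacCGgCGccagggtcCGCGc
Ins1: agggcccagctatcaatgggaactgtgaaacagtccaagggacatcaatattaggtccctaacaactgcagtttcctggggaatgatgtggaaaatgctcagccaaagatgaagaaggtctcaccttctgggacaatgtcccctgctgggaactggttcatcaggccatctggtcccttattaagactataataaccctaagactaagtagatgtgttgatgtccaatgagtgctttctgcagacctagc
The Glis1 stretch holds 41 CpG pairs, the Glis3 stretch 24 and the Ins1 stretch 0. The Glis1 stretch also lies within Gm46866 (107433777 to 107435255), a protein-coding gene inside the Glis1 span that was in neither list. Whether any methylated region of the table lies in these stretches is not known.

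Glis3 (chromosome 19, 28258851 to 28680265 in GRCm38.p6, minus strand) was the only member of the family in both lists. It was written as Glis3 in the list of genes nearest to regions less methylated in null cells, called the lower list here, and as GLIS3 in the list for regions more methylated in null cells, the higher list. Regions of opposite sign were therefore both assigned to it. Among all protein-coding genes, 1.51% were in the lower list, 12.1% in the higher list and 0.503% in both. Because the genes were looked up in these same lists, their places are a description and are not set against those shares as a result. On chromosome 19, the lower list named 9 protein-coding genes and the higher list 97, and Glis3 was the 1 gene in both. Counting every class of gene on that chromosome, the lower list named 10 and the higher list 114, and Glis3 was still the 1 gene shared.

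The differing spelling was common among shared genes. Of the 130 genes in both lists, 80 were spelled alike, 35 differed in case alone, as Glis3 did, and 15 were given under different names.

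Glis1 (chromosome 4, 107426636 to 107635061) was named in the higher list, as GLIS1, and not in the lower list. On chromosome 4 the higher list named 181 protein-coding genes and the lower list 12, with 2 in common. Glis2 (chromosome 16, 4594320 to 4625141) was in neither list. On chromosome 16 these numbers were 89 and 11, with 7 in common. The share of genes in the higher list was 13.6% on chromosome 4, 13.1% on chromosome 16 and 13.8% on chromosome 19, so the home chromosomes of the family differed little in this respect.

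The paralogues differ greatly in size, and gene size moved with the lists. Glis3 spans 421 kb, Glis1 208 kb and Glis2 30.8 kb. Glis1 and Glis3 fall in the longest decile of protein-coding genes, and Glis2 in the seventh. In the longest decile, 38.4% of genes were in the higher list, 4.89% in the lower list and 2.61% in both. In the decile of Glis2 the shares were 9.83%, 1.46% and 0.274%. Only 312 protein-coding genes, Glis3 included, are at least as long as Glis3. Of these, 170 were in the higher list (54.5%), 28 in the lower list (8.97%), 17 in both (5.45%) and 131 in neither. Among the 940 genes at least as long as Glis1, the higher list held 452 (48.1%) and the lower list 60 (6.38%). The part of gene length in the places of the paralogues was not tested.

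**Figure D1:**
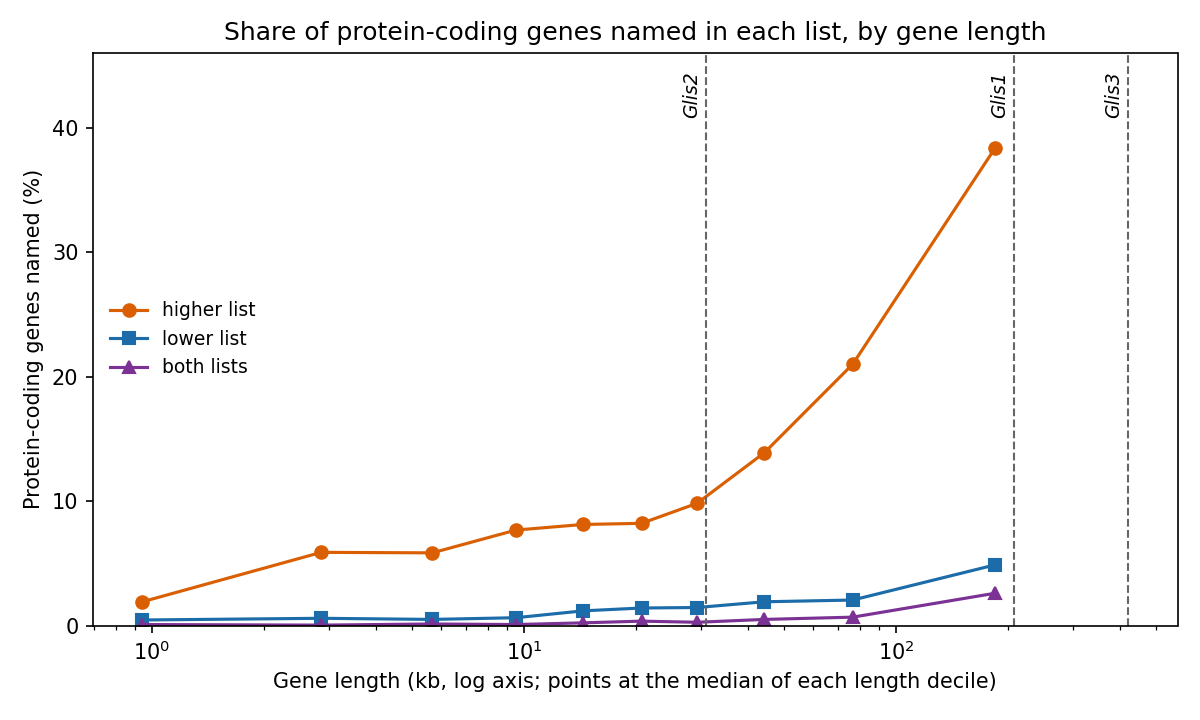
Share of protein-coding genes named in each list (%) against gene length (kb, log axis), with each point at the median length of 1 decile of about 2189 genes and dashed lines at the lengths of the Glis genes. The share in the higher list goes from 1.92% in the shortest decile to 38.4% in the longest, and Glis1 and Glis3 lie at the long end while Glis2 lies at 30.8 kb.

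Ordered by length, Glis3 was number 17 of the 110 protein-coding genes in both lists, whose median length was 114 kb. Its neighbours in that order were Tshz2 (440 kb), a zinc finger factor gene, and Trappc9 (472 kb) on the longer side, and Ebf1 (390 kb), a factor of B cell development, and Adcy2 (380 kb), an adenylyl cyclase gene, on the shorter side. They are named here for their length alone, after the table had been seen.

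The space around each gene also differs, and a nearest-gene rule assigns to a gene the regions that fall in that space. Glis3 lies 244 kb from Rfx3 and 155 kb from Slc1a1, the nearest protein-coding genes that do not overlap it. With protein-coding genes alone and the gap on each side split at its midpoint, the space of Glis3 is 621 kb, that of Glis1 234 kb and that of Glis2 48.5 kb. The lists also name noncoding genes, and D930032P07Rik, a long noncoding RNA gene, takes up part of the gap between Glis3 and Slc1a1, so the space of Glis3 is smaller where such genes are counted. How the authors assigned regions that overlap a gene, or lie in a gap, is not stated in the labels.

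Both genes flanking Glis3 were in the higher list. Rfx3 (chromosome 19, 27761721 to 28014669) encodes a winged-helix factor of cilia and of endocrine cell differentiation in the pancreas. Slc1a1 (28835135 to 28913960) encodes a glutamate transporter. Rfx3, Glis3 and Slc1a1 thus formed a run of 3 protein-coding genes in a row in the higher list. Both flanking genes are long. Rfx3 (253 kb) falls in the longest decile, of which 38.4% was in the higher list. Slc1a1 (78.8 kb) falls in decile 9, of which 21.0% was. The part of gene length in the places of these 2 genes was not tested. The next protein-coding genes outward, Pum3 and 4430402I18Rik, were in neither list. Between Pum3 and Rfx3, the long noncoding RNA gene C030016D13Rik (27430037 to 27432631) was in the higher list. D930032P07Rik (28678224 to 28720027), also noncoding and on the plus strand, was in the higher list too. It starts 2.04 kb inside the annotated span of Glis3 and runs on the opposite strand across the Glis3 start at 28680077 and beyond it. A region at the overlap is close to both genes, and which regions led to which name cannot be read from the table.

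Within 1000 kb on each side of Glis3, 4 of 17 other protein-coding genes were in the higher list (23.5%), namely Rfx3, Slc1a1, the relaxin family gene Insl6 and Cd274, which encodes the immune checkpoint ligand PD-L1. None of the 17 was in the lower list. The nearest other gene of the lower list was Myof, 9220 kb away. The lower list is the smaller one and held 1.28% of the protein-coding genes of chromosome 19, against 13.8% for the higher list, so a count of 0 of 17 is near its background.

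Glis1 stood at the end of a run of 4 neighbouring protein-coding genes in the higher list, Dio1, Yipf1, Ndc1 and Glis1. Dio1 (107291465 to 107307168) encodes a deiodinase that activates thyroid hormone, Yipf1 a Golgi membrane protein and Ndc1 a nucleoporin of the nuclear pore membrane. Ndc1 lies only 10.3 kb from Glis1. On the other side Dmrtb1, a testis-expressed factor gene 41.2 kb away, was in neither list, and Lrp8, a reelin receptor gene 167 kb away, was in the higher list, as was Czib. In all, 5 of 43 other protein-coding genes within 1000 kb of Glis1 were in the higher list (11.6%), against 13.6% over chromosome 4. All 5 lay within 500 kb, where they made up 5 of 21 (23.8%). Among the nearest 5 genes on each side they were 5 of 10 (50.0%), so the share depends on the window. None of the 43 was in the lower list, which held 0.904% of the protein-coding genes of chromosome 4, so this count is near its background. The nearest gene of the lower list was Calr4, 1580 kb away.

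Runs of this length were not unusual. Across the genome, 148 runs of 3 or more neighbouring protein-coding genes were in the higher list, holding 19.1% of its 2645 protein-coding genes, and 41 runs had 4 or more, holding 6.92%.

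Few genes within 1000 kb of Glis2 were named. Of 39 other protein-coding genes there, the higher list named 1 (2.56%), against 13.1% over chromosome 16. This comparison does not take the lengths of the genes into account, and their part in it was not tested. The exception was Srl (4476979 to 4541908), which encodes the muscle calcium-store protein sarcalumenin, 52.4 kb away. Among the nearest 5 genes on each side, Srl was 1 of 10, so the share depends on the window. The lower list named 0 of the 39. It held 1.62% of the protein-coding genes of chromosome 16, so this count is near its background. Tfap4, Coro7 and Vasn, the other near flanking genes, were in neither list, and nor was Pam16, which overlaps Glis2. The lower list came no closer than Rbfox1, at 1260 kb.

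**Figure D2:**
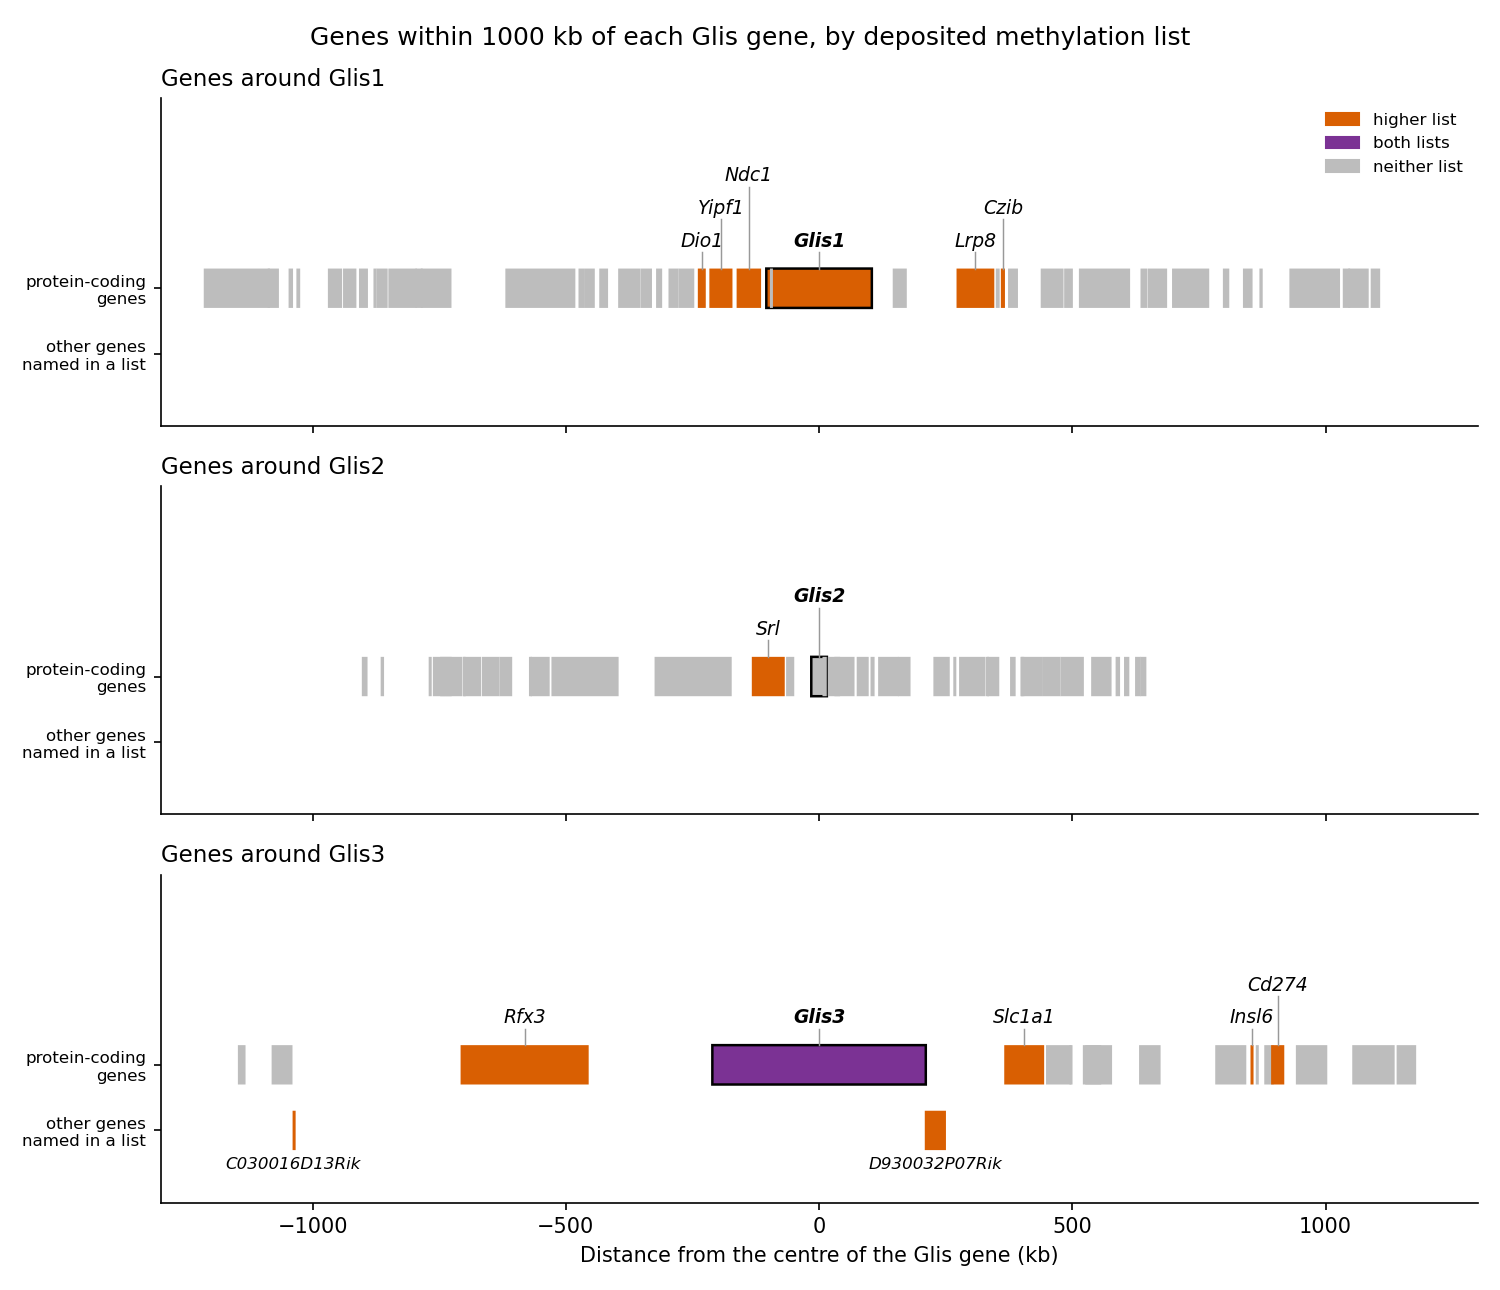
Genes within 1000 kb of Glis1, Glis2 and Glis3, placed by distance from the centre of the Glis gene (kb) and coloured by list, with the Glis gene outlined and genes under 6 kb drawn 6 kb wide. Glis3 alone is in both lists, and the adjacent gene is in the higher list on both sides of Glis3 and on 1 side of Glis1, while neither gene adjacent to Glis2 is in a list and Srl, farther out, is the 1 named gene around it.

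Around the transcript starts of the printed sequences, Glis1 and Glis3 were both rich in CpG. No promoter window was available for Glis2, so the named and unnamed paralogues could not be compared in this respect. For Glis1 this is a start within the annotated span, and the outermost end of the gene was not examined. Over the full 300-base RefSeq windows, which reach 50 bases past the start, Glis1 had 47 CpG pairs and Glis3 had 32, against a median of 7 over 32851 windows of 27025 genes. The ratio of observed to expected CpG, which corrects for base composition, was 0.960 for Glis1 and 0.774 for Glis3. Of all windows, 91.7% had a lower ratio than Glis1 and 77.0% a lower ratio than Glis3. Next to Glis3, the ratio was 1.02 for Rfx3, 0.863 for Slc1a1 and 0.595 for D930032P07Rik. Next to Glis1 it was 0.593 for Ndc1, 1.04 for Yipf1 and 0.162 for Dio1. The relatives in neither list also varied, with 1.12 for Gli3, 0.969 for Zic1, 0.830 for Gli2, 0.545 for Zic4 and 0.510 for Zic5. Gli1 and Zic2 had no window. The ratio of Glis1 and that of Glis3 thus lay within the range of the unnamed relatives that had one. Ins1 was at the other end, with 0 CpG pairs in the window, as in 5.43% of windows.

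**Figure D3:**
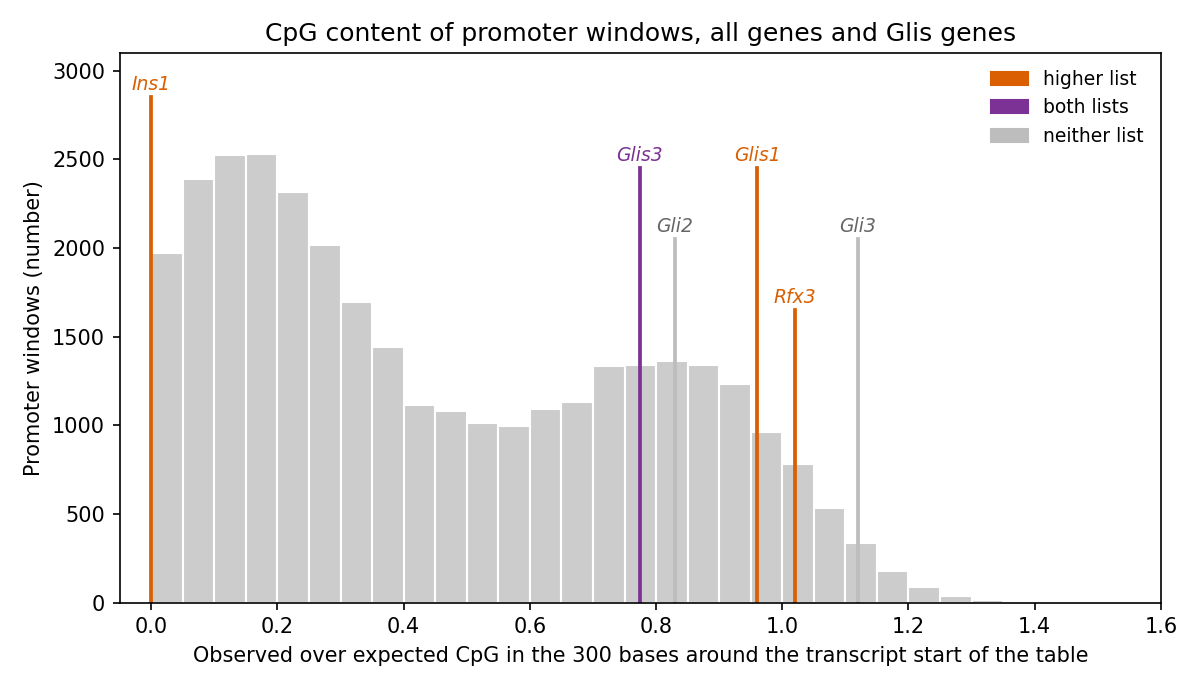
Number of 300-base promoter windows by ratio of observed to expected CpG, for 32851 windows, with coloured lines at the values of single genes (the height of a line carries no value, and 1 window above the axis range is counted in the last bar at 1.6). Glis1 at 0.960 and Glis3 at 0.774 lie in the upper of the 2 humps together with Gli2, Gli3 and Rfx3, and Ins1 lies at 0.

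The letters TGGGGGGT, the core of the site that Glis proteins prefer, were searched on both strands of these windows. They were found in 501 of the 32851 windows (1.53%) and not in the windows of Glis1, Glis3, Ins1, Rfx3 or Slc1a1. Their absence says only that these letters are not in these windows.

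Close relatives of the family were not named. None of 7 Gli and Zic genes analysed was in either list. Gli1, Gli2 and Gli3 are the transcription factors of the Hedgehog pathway, and Zic1, Zic2, Zic4 and Zic5 are factors of neural development. Gli2 (220 kb) and Gli3 (266 kb) are longer than Glis1 and fall in the same length decile, of which 38.4% was in the higher list. The other 5 are shorter, from 4.95 kb for Zic2 to 23.7 kb for Zic4. A set of 7 genes is too small for a count of 0 to be set apart from the 12.1% of all protein-coding genes.

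Other genes in which mutations cause neonatal diabetes in people, as those in GLIS3 do, came to 4 of 26 in the higher list (15.4%, against a background of 12.1%) and 0 of 26 in the lower list (against 1.51%). They were Abcc8, the sulfonylurea receptor of the beta cell potassium channel, Gata6 and Mnx1, which are pancreatic transcription factor genes, and Lrba, an immune regulator gene of 559 kb. Kcnj11, the channel subunit that partners Abcc8, as well as Ins2 and the pancreatic factor genes Pdx1 and Ptf1a, were in neither list. Mnx1 at 4.65 kb and Gata6 at 33.1 kb are far shorter than Glis3. They fall in length deciles 3 and 7, of which 5.85% and 9.83% were in the higher list. The part of gene length in these entries was not tested.

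Thyroid genes were also looked at, because loss of GLIS3 affects the thyroid. Of 15 genes of congenital hypothyroidism, 1 was in the higher list (6.67%, against a background of 12.1%), the forkhead factor gene Foxe1. The lower list held 0 of them (against 1.51%). Pax8, Nkx2-1, Nkx2-5 and Hhex, further factors of thyroid formation, were in neither list. Of 11 genes that Glis3 is known to act on, Ins1 (0.719 kb) was the 1 in the higher list (9.09%, against 12.1%). Ins2, Neurog3, Mafa, a beta cell factor gene, and Ccnd2, a cyclin gene of beta cell growth, were in neither list. Neurog3, also in the neonatal diabetes set, carries the reporter, so its locus differs between the genotypes by design. Its place is not comparable with those of the other genes.

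Of 13 genes for proteins that bind Glis factors or act with them, Sufu was the 1 in the higher list (7.69%, against a background of 12.1%). It encodes the suppressor of fused protein, which restrains Gli factors and also binds Glis3. Wwtr1, which encodes the Hippo effector TAZ, the ubiquitin ligase genes Cul3 and Itch, and the coactivator gene Crebbp were in neither list. Of 21 genes of cystic kidney disease and the primary cilium, 2 were in the higher list (9.52%, against 12.1%), namely Nphp4 and Cep164. Pkd1, Pkd2 and Invs were in neither list, and nor was Pkhd1, which at 560 kb is longer than Glis3. None of these partner or cilium genes was in the lower list, which held 1.51% of all protein-coding genes.

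The 6 sets together, which share some genes, held 84 distinct genes. Of them 9 were in the higher list (10.7%), close to the background of 12.1%, and 0 in the lower list (against 1.51%).

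**Figure D4:**
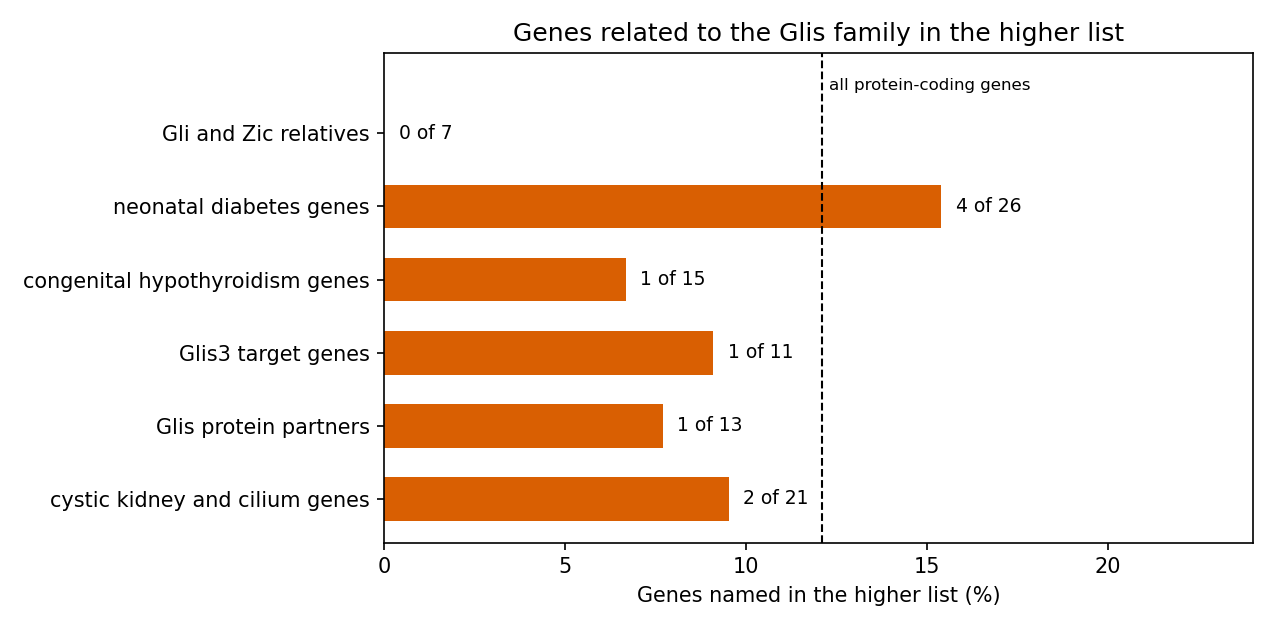
Percentage of each set of genes related to the Glis family that was named in the higher list, with the count beside each bar and a dashed line at the 12.1% of all protein-coding genes. The bars run from 0 of 7 for the Gli and Zic genes to 4 of 26 for the neonatal diabetes genes and lie on both sides of the line.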

How the data were processed

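Cells of over 95% viability were sorted for eGFP and lysed directly, and 75 ng of DNA per library was tagmented with Tn5, bisulfite-converted and amplified in 12 cycles, per the labels' protocols. Reads were paired and 150 bp long. Trim Galore and the builds mm10 and GRCm38 are named in the submitters' processing notes. For the aligner, the region caller, its thresholds, the handling of PCR duplicates and the nearest-gene rule, nothing is stated in the labels or the table.

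The authors deposited a table of 9 columns that hold names and no other quantity, so no value has a unit. Per the file headers, column 1 is the lower list and column 2 opens the higher list. The 7 columns after it have no header and were read as the same list, since each carries on its alphabetical order.

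Names were matched, ignoring case, to current symbols, gene IDs of 6 or more digits and unique older symbols in the RefSeq annotation of GRCm38.p6 (49997 genes). This placed 407 of 429 lower and 3147 of 3230 higher names. Glis genes were looked up by current symbol. Coordinates are of genes, not regions. Neighbours, length deciles and shares were computed in Python 3.11.15, with matching checked on planted names, and figures were drawn with matplotlib 3.10.9. RefSeq promoter windows matched Glis1 and Glis3.

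The Glis genes and the related gene sets were chosen with earlier results of these data known. The genes named are the Glis genes, the 2 nearest protein-coding genes on each side of each, the Gli and Zic genes of their set, and of the other sets every gene in a list and the first 4 in neither. Further genes near a Glis gene or of like length were named after the table had been seen. Some genes of the sets are not reported here and were left out of their counts.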

Additional observations from a re-analysis of the deposited data

How the results depend on the processing

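Of 40 values recomputed with other settings for 32 results, 28 stayed near the main value and 12 moved. Near means within 1.5 times a main count or percentile, or within the 95% exact binomial interval of a main share. With names matched in exact case, 0 Glis genes were found in the higher list, because GLIS1 and GLIS3 stand there in capitals. Over all annotated gene classes the shares were 0.814% in the lower list, 6.29% in the higher list and 0.260% in both, since many noncoding genes are then counted. On autosomes 12.7% of protein-coding genes were in the higher list. With 500 kb on each side, or the nearest 5 genes on each side, 2 genes near Glis3 were in the higher list, since Insl6 and Cd274 lie farther out. With 20 length classes the class of Glis1 and Glis3 had 46.8% in the higher list and 3.66% in both. The 7-base TGGGGGG was in 8.47% of promoter windows. By number of CpG pairs, 98.6% of windows were below Glis1 (91.7% by ratio) and 90.5% below Glis3 (77.0% by ratio). The counts of the 6 related gene sets were the same with current symbols only. No paired analysis was possible because 1 library per genotype leaves no pairs.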

Other observations

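The surroundings of Glis1 and Glis3 share gene families, which were listed after the table had been seen. Slc1a1, a glutamate transporter gene 155 kb from Glis3, was in the higher list, and Slc1a7, a relative 333 kb from Glis1, was in neither. Lrp8 and Vldlr both encode reelin receptors. Lrp8, 167 kb from Glis1, was in the higher list, and Vldlr, 1000 kb from Glis3, was in neither. Among the Dmrt genes, which encode factors of sex determination and neural development, Dmrtb1 near Glis1 was in neither list. Of those on the chromosome of Glis3, Dmrt1 (98.7 kb long, 2650 kb from Glis3) was in the higher list, and the shorter Dmrt2 (6.62 kb) and Dmrt3 (13.7 kb) were in neither. Vldlr, Dmrt1, Dmrt2 and Dmrt3 lie outside the 1000 kb window used above. None of the genes of these families was in the lower list. That list held 0.904% of the protein-coding genes of chromosome 4 and 1.28% of those of chromosome 19, so their absence is near its background.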
